A study of Mus musculus with 48 samples.

Results

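TRBV14 is 1 of the 26 V segments of the T cell receptor β chain (TCRβ) that were named in the 48 libraries of the series. It is called Vβ13 in the older mouse nomenclature. All clones whose V segment was TRBV14 were taken as its repertoire, which gave 34471 of 959731 clone records, and each of the 48 libraries held some. The segment was selected on these data, because large TRBV14 clones were seen in CD4+ T cells of tumors. Its share of reads and the size of its large tumor clones are therefore described here without a test.

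A TCRβ chain is assembled in the thymus from 1 V, 1 D and 1 J segment, and bases are trimmed and added at the joints. The joint is the last of its complementarity-determining regions (CDR3), the part of the chain that mainly touches the antigenic peptide, so a clone can be followed by its V, its J and its CDR3 sequence. The V segment carries the other two complementarity-determining regions, which mainly touch the MHC molecule, and V segments are used unequally by CD4+ and CD8+ T cells. In the GRCm38 annotation, Trbv14 lies at chr6:41135145-41135616 on the plus strand, between Trbv13-3 and Trbv15. Its exon 1 spans 41135145-41135215 and begins with a 5′ untranslated part, and its exon 2 spans 41135320-41135616 and ends with the first bases of the CDR3.

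Lewis lung carcinoma cells, a mouse lung tumor line of C57BL/6 origin, were inoculated under the skin on both sides of the back of 8-week-old female C57BL/6 mice. On day 13, T cells were taken from the left and right tumor and from the draining lymph node (dLN) of each side in 4 mice, numbered 5 to 8. The CD4 tumor and CD8 tumor groups were all CD4+ or CD8+ T cells of the tumor, from 2 fragments per tumor, and held 16 libraries each. The CD4 dLN and CD8 dLN groups were CD44hi cells only (antigen-experienced or memory-like cells) and held 8 libraries each, so that the tissue and the CD44 gate cannot be told apart. No tumor-free mouse was analysed here. All cells were negative for intravascular staining, and a sort purity above 95% was stated by the study. The libraries held 326582 to 4840722 reads as deposited, and each was drawn at random to 6 reads per sorted cell, the depth used in the study. A library then held 71 to 188 TRBV14 clones in the CD4 tumors, 220 to 402 in the CD4 dLNs, 358 to 1730 in the CD8 tumors and 1440 to 2276 in the CD8 dLNs. The 2 fragments of a tumor were added, and left and right were averaged, so that every group had 1 value per mouse (n = 4).

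The sequences below carry the clones on which the results turn. The first lines give the end of the Trbv14 segment and 3 J segments from the GENCODE transcripts of GRCm38, with the bases that enter the CDR3 in capitals. The clone lines give the CDR3 from its first cysteine to its last phenylalanine codon, and the capitals there mark the bases that were assigned to neither the V nor the J segment.
Trbv14 end: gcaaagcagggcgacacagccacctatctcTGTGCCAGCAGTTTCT
Trbj2-5: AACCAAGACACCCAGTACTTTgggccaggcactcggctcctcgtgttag
Trbj2-7: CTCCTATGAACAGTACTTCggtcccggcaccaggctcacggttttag
Trbj1-2: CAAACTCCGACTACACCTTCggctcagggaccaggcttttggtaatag
CD4 tumor, mouse 7, TRBJ2-5: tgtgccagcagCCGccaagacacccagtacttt
CD4 tumor, mouse 5, TRBJ2-7: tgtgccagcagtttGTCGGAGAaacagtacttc
CD8 tumor, mouse 6, TRBJ2-2: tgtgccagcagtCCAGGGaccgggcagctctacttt
CD8 tumor, mouse 5, TRBJ2-7: tgtgccagcagCGCTtatgaacagtacttc
CD8 tumor, mouse 6, TRBJ2-1: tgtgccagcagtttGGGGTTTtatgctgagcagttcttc
CD8 tumor, mouse 6, TRBJ2-7: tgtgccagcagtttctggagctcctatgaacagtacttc
CD8 tumor, mouse 7, TRBJ1-2: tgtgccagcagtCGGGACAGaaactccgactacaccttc
CD8 dLN, mice 5 and 8, TRBJ2-4: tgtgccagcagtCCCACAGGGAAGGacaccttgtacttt

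The germline end of Trbv14 brings 16 bases into the CDR3, which encode CASSF and the first base of a further codon. The mouse 7 clone of the CD4 tumors kept 11 of them, lost the phenylalanine codon and carried only 3 unassigned bases, so that its CDR3 was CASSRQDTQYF. The mouse 6 clone with TRBJ2-7 in the CD8 tumors kept all 16 and read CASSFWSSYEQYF. It had 0 unassigned bases, because 23 bases were assigned to TRBJ2-7, of which the germline segment brings 19. The 4 further bases (ggag) are the reverse complement of the first 4 bases of the segment.

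In the CD4 tumors, the TRBV14 share of reads differed from mouse to mouse. With the left sample first, it was 2.65% and 2.63% in mouse 5, 1.28% and 1.31% in mouse 6, 7.47% and 7.77% in mouse 7, and 1.56% and 1.31% in mouse 8. The sides of a mouse thus differed by 0.299 percentage points at most, while the mice ranged over several-fold, and mouse 7 lay above all others. The group mean was 3.25% ± 2.98 (SD, n = 4) and was 1.79% without mouse 7. With the most frequent TRBV14 clone of each mouse left out of the TRBV14 reads and of the total, the mean was 1.44% ± 0.514, and mouse 7 fell to 1.27%.

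In the CD4 dLNs, the share of reads was even across the mice. It was 2.75% and 2.47% in mouse 5, 2.73% and 2.54% in mouse 6, 2.54% and 2.31% in mouse 7, and 2.19% and 1.82% in mouse 8, with a mean of 2.42% ± 0.293. Mouse 7, which was highest in the tumors, lay below mice 5 and 6 in the dLNs. The tumor value lay above both dLN values of the same mouse on both sides only in mouse 7, and below them on both sides in mice 6 and 8.

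In the CD8 dLNs the TRBV14 share of reads was 5.98% and 5.27% in mouse 5, 6.12% and 6.13% in mouse 6, 6.17% and 5.82% in mouse 7, and 5.90% and 7.30% in mouse 8, with a mean of 6.09% ± 0.404. In the CD8 tumors it was 2.67% and 3.65% in mouse 5, 2.92% and 5.15% in mouse 6, 3.55% and 3.25% in mouse 7, and 1.17% and 1.04% in mouse 8, with a mean of 2.92% ± 1.27. All 8 CD8 tumors lay below all 8 CD8 dLNs. A single clone of the right CD8 dLN of mouse 8 (TRBJ2-4, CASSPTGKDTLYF) held 1.01% of its reads, and the library had 6.35% TRBV14 without it. The same nucleotide sequence also led TRBV14 in the left CD8 dLN of mouse 5, at 0.324%, and a passage of reads between libraries was not tested.

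**Figure D1:**
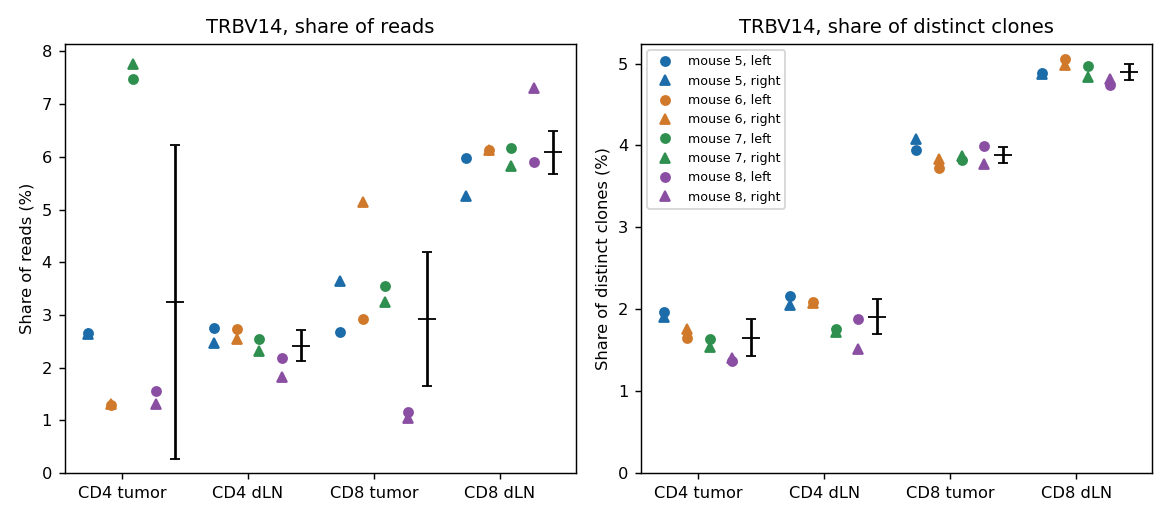
Share of TRBV14 in all reads (left, %) and in all distinct clones (right, %) of each tumor or dLN in the 4 groups; circles are left, triangles right, colors the 4 mice, and the bar at the right of each group is the mean and SD over mice. By reads the CD4 tumors of mouse 7 stand at 7.47% and 7.77%, whereas by distinct clones the CD4 tumors lie between 1.36% and 1.96%.

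When each clone was counted once, the differences between mice in the CD4 tumors narrowed. TRBV14 made up 1.65% ± 0.229 of the distinct clones in the CD4 tumors and 1.91% ± 0.215 in the CD4 dLNs, and the ranges of the 8 samples, 1.36% to 1.96% and 1.52% to 2.16%, overlapped. Mouse 7, with 1.63% and 1.54%, was not the highest. In the CD8+ groups the share was 3.88% ± 0.0963 in the tumors (range 3.72% to 4.08%) and 4.89% ± 0.0981 in the dLNs (range 4.74% to 5.05%), which did not overlap. The 95% Wilson interval of a single sample was widest in the CD4 tumors (1.60% to 2.25% for the right tumor of mouse 5) and, as for all intervals given here, covers counting error only.

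The ratio of the read share to the clone share gives the mean number of reads per TRBV14 clone relative to that of all clones of the sample. It was 1.995 ± 1.896 in the CD4 tumors, with 1.37, 0.760, 4.81 and 1.04 in mice 5 to 8. This was the highest mean of 22 V segments in that group, but it rested on mouse 7, whose most frequent clone held 84.5% of the TRBV14 reads. In the CD4 dLNs the ratio was 1.27 ± 0.0886, in the CD8 dLNs 1.24 ± 0.0966 and in the CD8 tumors 0.755 ± 0.334, the last with 0.284 in mouse 8.

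The CD4 tumor clones of at least 0.5% of reads were 2 in number. The larger one, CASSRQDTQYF with TRBJ2-5 in mouse 7, was the most frequent of all clones in both tumors. Its share of reads was 6.36% in the left tumor (95% Wilson interval on estimated cells 6.27% to 6.45%) and 6.51% in the right one (6.42% to 6.60%). The share was 5.68% and 7.04% in the fragments of the left tumor and 7.78% and 5.19% in those of the right, so the fragments of a tumor differed more than its sides did.

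The same clone was seen in both CD4 dLNs of mouse 7, at 0.311% (left, 0.262% to 0.369%) and 0.160% (right, 0.129% to 0.198%), where it was the 6th and the 24th most frequent clone. Its mean share in the tumors was 27.3 times that in the dLNs. In the left dLN it was the most frequent TRBV14 clone, with 12.3% of the TRBV14 reads. In the CD8 tumors of mouse 7 the sequence was found at 0.00221% and 0.00265%, and no read was found in the CD8 dLNs of that mouse, where 3 reads would be 0.000825% and 0.000561%. Among the other mice 1 sample held it, the left CD4 tumor of mouse 8, at 0.00393%. Of the reads with this CDR3 nucleotide sequence in mouse 7, 0.0112% carried another V or J call. Apart from it, 3 other nucleotide sequences in 2 mice encoded the same CDR3 residues with TRBV14, each at 0.00201% or less.

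The other clone, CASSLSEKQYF with TRBJ2-7 in mouse 5, had a share of 0.362% (left, 0.325% to 0.402%) and 0.537% (right, 0.478% to 0.603%) of the tumor reads. It was the 32nd and the 16th most frequent clone there. It was at 0.0186% in the left CD4 dLN (0.00923% to 0.0359%), and no read was found in the right one, where 3 reads would be 0.00177%. No sample of another mouse held it. The right tumor placed this clone just inside the threshold. Just outside it were a TRBJ1-6 clone of mouse 5, at 0.468% and 0.252%, and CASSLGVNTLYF with TRBJ2-4 of mouse 5, at 0.416% and 0.375%. Neither of these had a read in a CD4 dLN, where 3 reads would be 0.00114% and 0.00177%.

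At a threshold of 0.1%, the CD4 tumors held 10 TRBV14 clones, 4 in mouse 5, 1 in mouse 6, 3 in mouse 7 and 2 in mouse 8. All 10 were found in both tumors of their mouse. Of them, 8 were found in at least 1 CD4 dLN and 6 in both. Of the 673 clones of other V segments at this threshold, all 673 were found in both tumors, 606 (90.0%) in at least 1 CD4 dLN and 516 (76.7%) in both. At 0.5%, both TRBV14 clones and 58 of 63 other clones (92.1%) were found in at least 1 CD4 dLN. In both CD4 dLNs, 1 TRBV14 clone and 52 other clones (82.5%) were found.

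In the CD8 tumors, 7 TRBV14 clones reached 0.5% of reads on at least 1 side, 3 in mouse 5, 3 in mouse 6, 1 in mouse 7 and 0 in mouse 8. The largest was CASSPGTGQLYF with TRBJ2-2 in mouse 6, at 0.349% (left, 0.333% to 0.367%) and 2.42% (right, 2.37% to 2.48%). The clone was 6.94 times more frequent on the right, and no read was found in either CD8 dLN, where 3 reads would be 0.000645% and 0.000733%. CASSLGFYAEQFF with TRBJ2-1, also in mouse 6, had the other balance, with 1.15% left and 0.617% right. It too had no read in the CD8 dLNs. The third clone of mouse 6, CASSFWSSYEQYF with TRBJ2-7, was at 0.346% and 0.929% in the tumors and at 0.0142% and 0.00342% in the dLNs.

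In mouse 5, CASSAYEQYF with TRBJ2-7 held 1.03% (left) and 1.59% (right) of the CD8 tumors. It was at 0.0107% in the left CD8 dLN and had no read in the right one, where 3 reads would be 0.000972%. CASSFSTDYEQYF with TRBJ2-7 held 0.612% and 0.467% of the tumors, and was near the limit of detection in the dLNs, with 3 reads in the left node and 11 in the other. The most uneven clone was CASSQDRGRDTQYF with TRBJ2-5, at 0.00186% in the left tumor (24 reads, 0.000725% to 0.00479%) and 0.559% in the other (0.524% to 0.597%). It was found in the left dLN, with 11 reads, and not in the right one.

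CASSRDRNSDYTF with TRBJ1-2 in mouse 7 had the highest dLN share of the 7. It held 0.628% and 0.673% of the CD8 tumors, and 0.0803% and 0.121% of the CD8 dLNs, where it ranked 3 and 1 among all clones. Its tumor share was 6.45 times its dLN share, against 72.3 times for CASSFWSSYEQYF. The dLN share of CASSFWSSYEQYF rests on 66 and 14 reads, or 11 and 2 estimated cells, so that its fold is imprecise. The other 3 clones that were found in a dLN had at most 44 reads in any node, and no fold is given for them. The next 2 clones below the threshold were both in mouse 7. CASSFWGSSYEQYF with TRBJ2-7 was at 0.432% and 0.278%, and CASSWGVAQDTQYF with TRBJ2-5 at 0.259% and 0.242%. All 7 clones of at least 0.5% were found in both tumors, 5 in at least 1 dLN and 3 in both. Of the 129 CD8 tumor clones of other V segments at this threshold, 128 were found in both tumors, 116 (89.9%) in at least 1 dLN and 89 (69.0%) in both. At 0.1% the order was the other way for at least 1 CD8 dLN, with 11 of 13 TRBV14 clones (84.6%) and 235 of 316 other clones (74.4%). For both CD8 dLNs it stayed the same, with 6 TRBV14 clones (46.2%) and 165 other clones (52.2%). With so few TRBV14 clones, no difference from the other segments was tested. The shares of reads with another V or J call were 0.0184% or less for each of the 7 clones of at least 0.5%. For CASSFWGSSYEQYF, below that threshold, the share was 0.0825%.

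**Figure D2:**
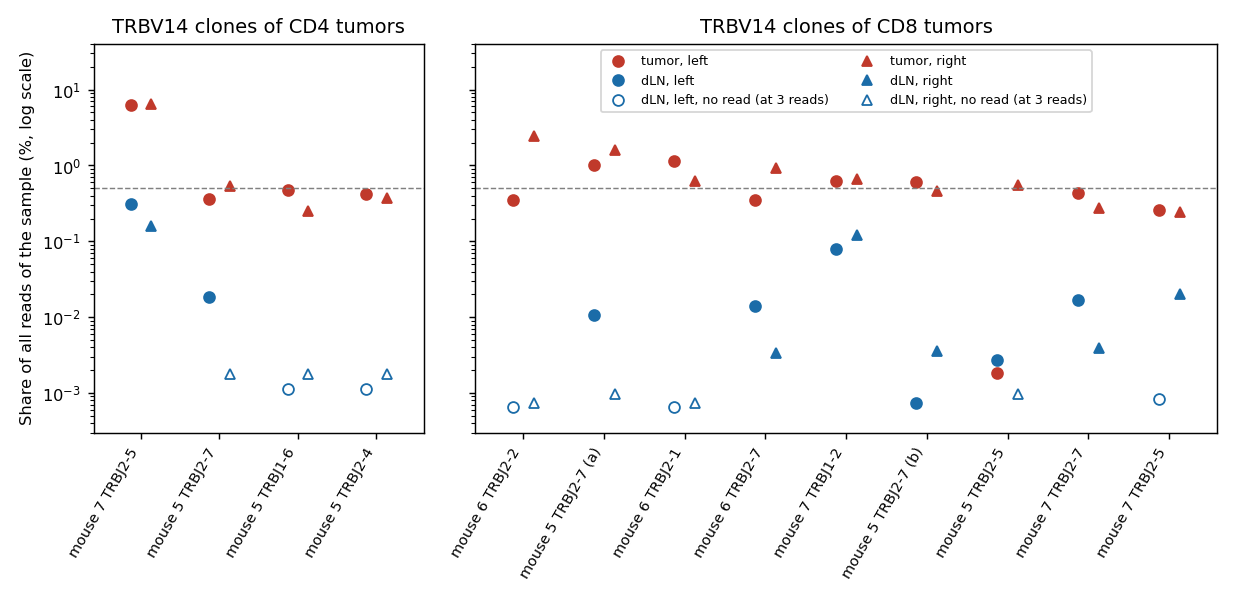
Share of all reads (%, log axis) of the TRBV14 clones of at least 0.5% of a tumor (dashed line) and the next 2 clones below it, in CD4 (left) and CD8 (right) samples of their own mouse; red is tumor, blue dLN, and an open symbol is a dLN with no read, placed at the share that 3 reads would give. The CD4 clone of mouse 7 stands at 6.36% and 6.51% in the tumors and at 0.311% and 0.160% in the dLNs.

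Over all clones, tracing between the sides and to the nodes was described for TRBV14 beside all other V segments of the same samples. In the CD4 tumors, 17.1% to 23.5% of the TRBV14 clones of a mouse were found in both tumors, against 22.7% to 23.9% for the others, and these shared clones held 81.6% ± 12.4 of the TRBV14 reads (geometric mean of the sides) against 84.4% ± 2.55. Clones that were also in a CD4 dLN made up 22.6% ± 3.91 of the TRBV14 clones and 21.0% ± 2.79 of the others. They held 49.2%, 59.8%, 94.0% and 69.5% of the TRBV14 tumor reads in mice 5 to 8, against 67.9% to 72.4% for the other segments. Mice 5 and 6 were thus below and mouse 7 above the range of the other segments.

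In the CD8 tumors, 7.99% ± 1.07 of the TRBV14 clones and 7.58% ± 1.19 of the others were found on both sides, but the reads in them differed. The shared clones held 77.2%, 82.7%, 62.1% and 46.5% of the TRBV14 reads in mice 5 to 8, and 84.7%, 85.8%, 73.2% and 87.2% of the reads of other segments, so TRBV14 was lower in 4 of 4 mice. Clones that were also in a CD8 dLN held 73.9%, 26.1%, 53.4% and 37.7% of the TRBV14 tumor reads, and 79.7%, 79.4%, 52.2% and 78.6% of the others. In mouse 6, whose 2 largest TRBV14 clones had no read in a dLN, the difference was widest. These read shares depend on few large clones and were not tested.

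The share of distinct clones, in which each clone counts once, was compared between the CD8 tumors and the dLNs. It was tested for every V segment with at least 20 distinct clones per mouse on average, 22 in all. The test was an exact permutation test over the 70 ways to split 8 mouse values, two-sided, with Benjamini-Hochberg adjustment over the segments, and 0.0286 is the smallest p it can give. From CD8 dLN to CD8 tumor the TRBV14 share fell by 1.02 percentage points, from 4.89% to 3.88%, lower in the tumor in 4 of 4 mice (exact permutation p = 0.0286, adjusted p = 0.0393). This was the largest fall of the 22 segments, with TRBV29 next (−0.995 percentage points) followed by TRBV13-3 (−0.926). The call as such was common, since 16 of 22 segments (72.7%) had an adjusted p below 0.05, 10 of them lower and 6 higher in the tumor. The count models gave the same call for TRBV14, with a log2 fold change of −0.29 and an adjusted p of 9.1e-08 in edgeR.

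Between the nodes, TRBV14 was the more frequent in CD8+ cells. It made up 1.91% of the distinct clones in the CD4 dLNs and 4.89% in the CD8 dLNs, 2.57 times as much, and was lower in the CD4 dLNs by 2.99 percentage points in 4 of 4 mice (exact permutation p = 0.0286, adjusted p = 0.0299). Of the 22 segments, 21 (95.5%) were called, 9 lower and 12 higher in the CD4 dLNs. TRBV14 had the 4th largest deficit, and 4 segments had a larger ratio of CD8 to CD4. With the mouse as a block, both differences in clone share had an exact p of 0.13, the smallest that 4 mice allow, and were not called.

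**Figure D3:**
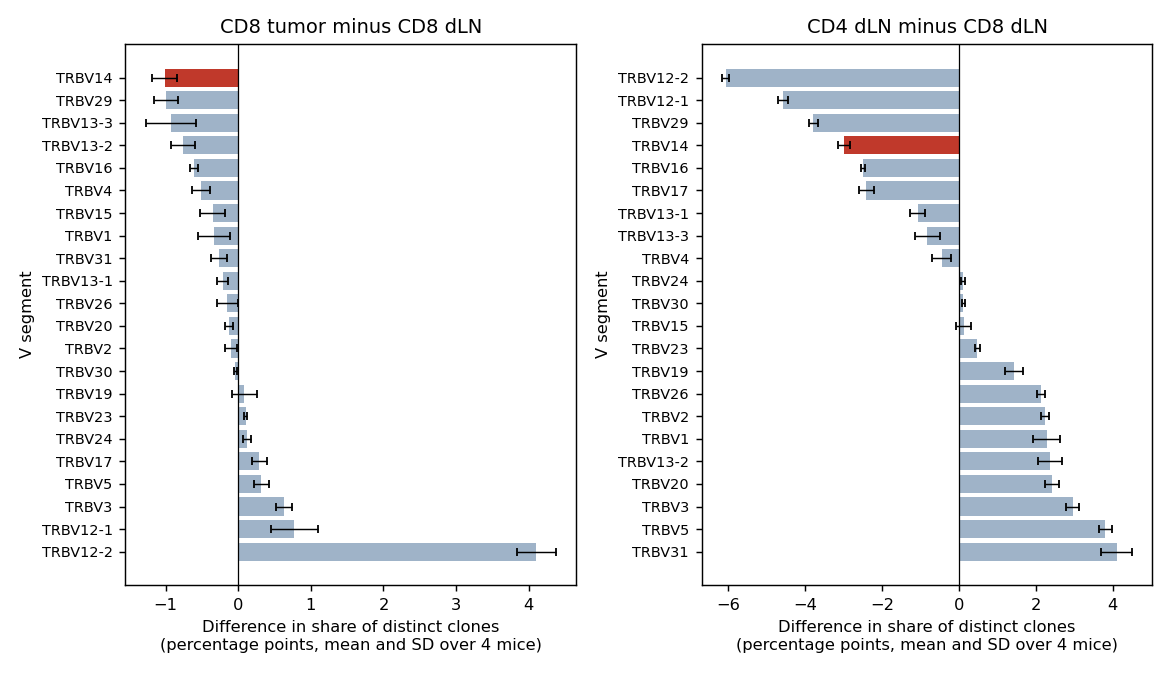
Difference in the share of distinct clones (percentage points) between CD8 tumor and CD8 dLN (left) and between CD4 dLN and CD8 dLN (right) for the 22 V segments tested; bars are means and error bars SDs of the within-mouse differences over 4 mice, with TRBV14 in red. TRBV14 has the lowest value on the left (−1.02) and the 4th lowest on the right (−2.99).

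Across the 32 samples (4 mice, 2 sides, 4 groups), the segments whose share of distinct clones followed that of TRBV14 most closely were TRBV16 (Spearman ρ = 0.921), TRBV4 (ρ = 0.776) and TRBV12-1 (ρ = 0.695). The 32 samples come from the same 4 mice and from groups that differ in level, and shares of one sample sum to a constant, so the values are given as a description. TRBV16 shared both directions, with 7.63% in the CD8 tumors, 8.25% in the CD8 dLNs and 5.75% in the CD4 dLNs. So did TRBV4, with 3.88%, 4.39% and 3.94% in the same order. TRBV12-1 shared the second only, being 8.12% in the CD8 tumors and 7.34% in the CD8 dLNs.

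TRBV14 clones had shorter CDR3s than the pool of all other V segments, but not the shortest of single segments. The mean length over distinct clones was 13.6 ± 0.116 residues in the CD4 tumors, 13.5 ± 0.0630 in the CD4 dLNs, 13.8 ± 0.0242 in the CD8 tumors and 13.7 ± 0.0109 in the CD8 dLNs. All other V segments together had 13.9, 13.8, 14.1 and 13.9 residues in the same order. The difference of TRBV14 from them was −0.265, −0.253, −0.314 and −0.260 residues, in 4 of 4 mice in each group (exact permutation p and adjusted p 0.0286 in each). TRBV14 and the other clones came from the same mice, and with the mouse as a block the exact p was 0.13 in each group, which is not below the threshold. Of the 22 segments, 4 had a shorter mean than TRBV14 in the CD4 tumors, 4 in the CD4 dLNs, 3 in the CD8 tumors and 6 in the CD8 dLNs, TRBV20 and TRBV30 in all 4 groups. The most frequent length was 14 residues for TRBV14 and for the others. In each group TRBV14 had a larger share of clones at 12 and 13 residues and a smaller one at 15 and 16. At 14 residues TRBV14 was higher in the CD4 dLNs (33.9% against 30.6%) and CD4 tumors (32.6% against 29.7%). It was slightly lower there in the CD8 dLNs (29.9% against 31.0%) and CD8 tumors (30.1% against 31.4%). Of the TRBV14 clones in the CD4 dLNs, 14.2% ± 0.657 had 15 residues against 20.7% ± 0.283 of the others. With the median in place of the mean, the difference was 0 in 3 groups and −0.13 in the CD4 dLNs and was not called.

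Between groups, TRBV14 clones were longer in the CD8 tumors than in the CD8 dLNs by 0.0729 residues, in 4 of 4 mice (exact permutation p = 0.0286, adjusted p = 0.0370). As many as 17 of 22 segments (77.3%) were called in this comparison, all 17 longer in the tumor, and the median difference of the segments was 0.0901. In the CD4 dLNs they were shorter than in the CD8 dLNs by 0.140 residues, in 4 of 4 mice (exact permutation p = 0.0286, adjusted p = 0.0419), where 15 of 22 segments (68.2%) were called and the median was −0.148. With the mouse as a block, the exact p was 0.13 for both, and neither was called. From CD4 dLN to CD4 tumor the difference was 0.104 residues, in 3 of 4 mice (exact permutation p = 0.2, adjusted p = 0.335). It was 0.0353 without mouse 5, and 0 of 22 segments (0%) were called by this test, although 8 had an exact permutation p below 0.05 before adjustment. Between CD4 and CD8 tumors it was −0.109 (exact permutation p = 0.143, adjusted p = 0.165), with 16 of 22 segments (72.7%) called, and was −0.166 without mouse 5 and −0.0689 without mouse 8. The tumor-to-dLN difference in length was not shown to differ between CD4+ and CD8+ cells (exact permutation p = 0.971). Weighted by reads, the tumor-minus-dLN difference in TRBV14 CDR3 length was −0.606 residues in CD4+ and −0.540 in CD8+ cells, and neither was called.

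**Figure D4:**
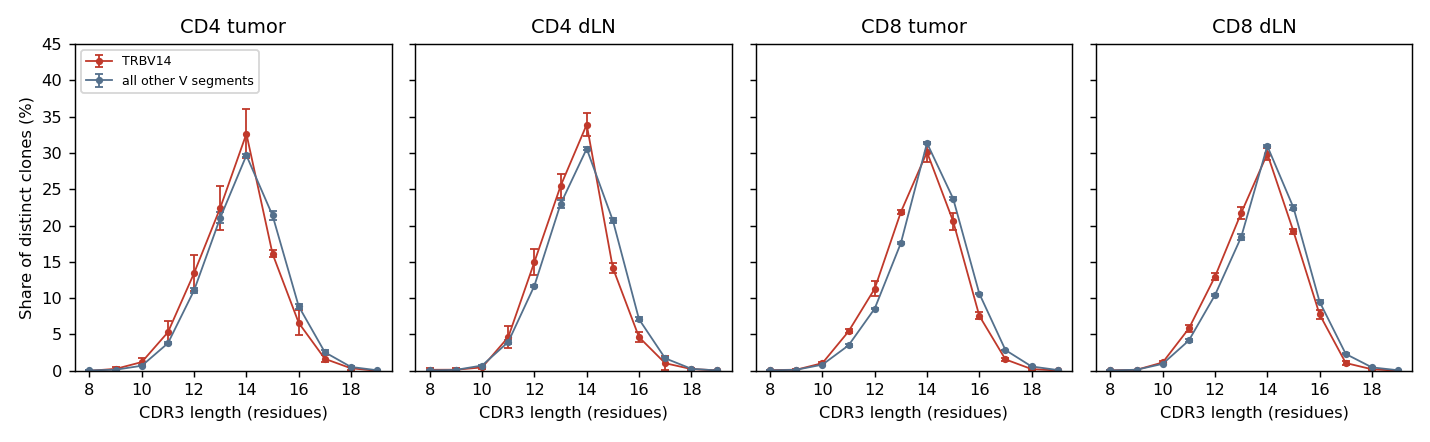
Share of distinct clones (%) by CDR3 length in residues for TRBV14 (red) and all other V segments (blue-gray) in the 4 groups; points are means and bars SDs over 4 mice. Both peak at 14 residues, and the TRBV14 curve lies lower at 15 residues in each group (14.2% against 20.7% in the CD4 dLNs).

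The joint itself was read from the segment positions in the files. TRBV14 clones had a mean of 12.7 ± 0.0581 bases assigned to V in the CD4 tumors, 12.8 ± 0.127 in the CD4 dLNs, 13.0 ± 0.0556 in the CD8 tumors and 12.9 ± 0.0175 in the CD8 dLNs, of the 16 that the germline offers. Clones of other segments had 13.6 to 13.8 such bases in all mice and groups. The bases between V and J were 9.77 and 9.44 in CD4 tumor and dLN and 9.85 and 9.73 in CD8 tumor and dLN, close to those of other segments (9.47, 9.21, 10.0 and 9.69). A phenylalanine at residue 5, as in the germline, was present in 25.5% ± 2.53 of the TRBV14 clones in the CD4 tumors and 26.0% ± 3.68 in the CD4 dLNs. In CD8+ cells it was present in 32.2% ± 1.67 in the tumors and 30.7% ± 0.815 in the dLNs. The mice overlapped between the 2 dLN groups, since mouse 7 had 29.9% in the CD4 dLNs and mouse 8 had 29.8% in the CD8 dLNs. The whole germline codon of this residue was assigned to V in fewer TRBV14 clones, 20.9%, 20.1%, 25.6% and 24.1% in the same order of groups. An arginine at this position, as in the mouse 7 clone, was found in 12.5% ± 2.60, 11.5% ± 1.62, 8.85% ± 0.536 and 8.48% ± 0.303 of the clones in the same order. Every CD4 value (10.4% to 15.97%) was above every CD8 value (8.16% to 9.60%). In clones of other V segments the arginine shares were 6.80%, 7.33%, 7.55% and 6.62%. A leucine there was found in 23.6%, 24.2%, 19.8% and 19.8% of the TRBV14 clones, and a proline in 12.8%, 13.4%, 13.8% and 14.3%. These shares were read after the values were known and were not tested.

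The J partners of TRBV14 were counted once per distinct clone. In the CD4 dLNs the most frequent were TRBJ2-7 with 19.9% ± 2.63, TRBJ2-5 with 19.4% ± 1.41 and TRBJ2-1 with 9.61% ± 1.18. TRBJ2-5, the partner of the large mouse 7 clone, stood out against its share in other clones of the same dLNs, which was 13.0% ± 0.1246. It was 17.6%, 19.3%, 21.1% and 19.5% of the TRBV14 clones of mice 5 to 8, against 12.8% to 13.1%, a difference of 6.35 percentage points. In the other groups the TRBV14 and other shares of TRBJ2-5 were 15.5% ± 4.50 and 11.6% in the CD4 tumors, 12.3% ± 0.924 and 10.8% in the CD8 tumors, and 12.6% ± 0.707 and 11.3% in the CD8 dLNs. Mouse 5, with 9.24% in the CD4 tumors, was the exception to the higher share.

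TRBJ1-2 paired less with TRBV14 in all 4 groups. Its share was 4.02% against 6.12% of other clones in the CD4 tumors, 2.90% against 5.33% in the CD4 dLNs, 2.95% against 5.04% in the CD8 tumors, and 2.96% against 5.78% in the CD8 dLNs, and TRBV14 was lower in 4 of 4 mice each time. TRBJ2-3 was lower in the CD4 dLNs (6.03% against 9.05%) and in the CD8 tumors (7.33% against 8.46%). Of 48 tests of 12 J segments in 4 groups, 15 (31.2%) had an exact permutation p below 0.05, all at 0.0286, and 0 passed the adjustment (smallest adjusted p = 0.0914). With 4 mice a group, at least 28 of 48 tests would have to reach the smallest p for any of them to pass.

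Between tumor and dLN, 2 of 24 J tests of TRBV14 clones (8.33%) had an exact permutation p below 0.05. TRBJ1-2 was 4.02% ± 0.500 in the CD4 tumors against 2.90% ± 0.461 in the CD4 dLNs, and TRBJ2-3 was 7.33% ± 0.301 in the CD8 tumors against 8.34% ± 0.586 in the CD8 dLNs (exact permutation p = 0.0286, adjusted p = 0.343 for both). Again 0 passed the adjustment, for which 14 tests at the smallest p would be needed. Weighted by reads, TRBJ2-5 held 6.13% to 86.3% of the TRBV14 reads of a mouse in the CD4 tumors, the highest being mouse 7.

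**Figure D5:**
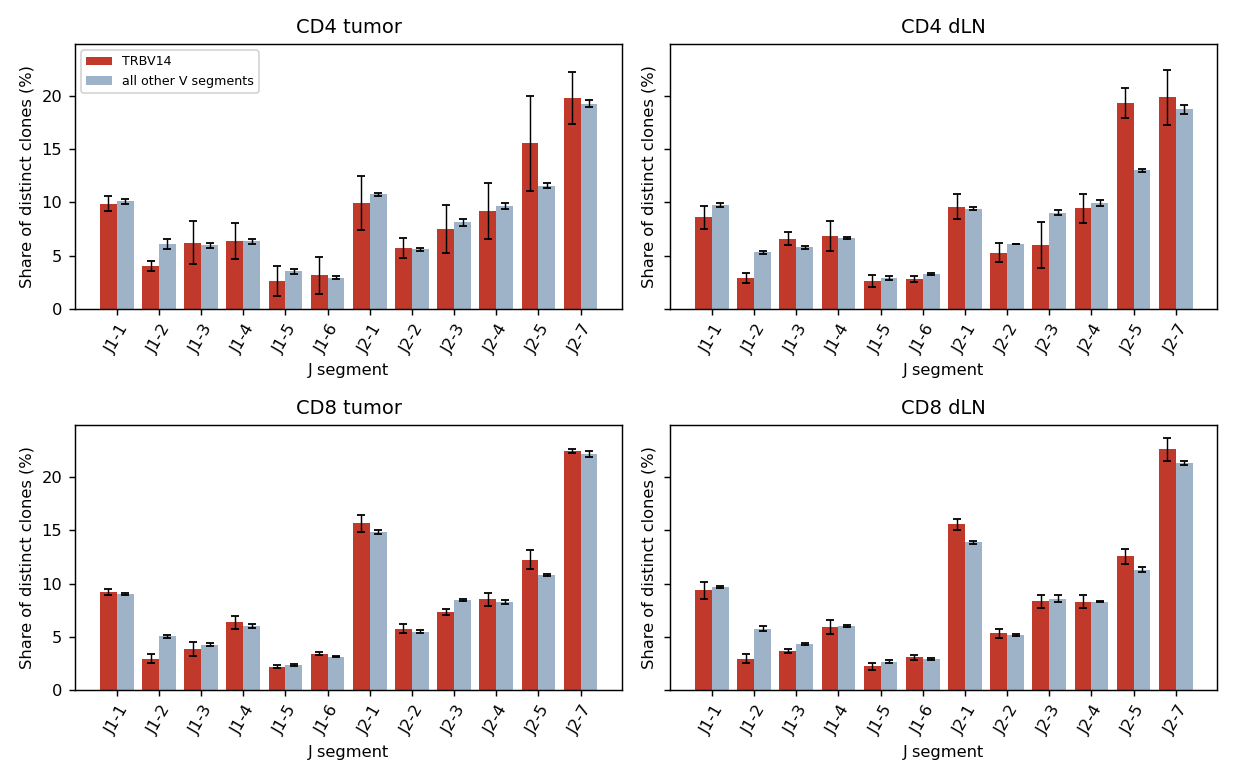
Share of distinct clones (%) that use each of 12 J segments, for TRBV14 (red) and all other V segments (blue-gray) in the 4 groups; bars are means and error bars SDs over 4 mice. TRBJ2-5 reaches 19.4% with TRBV14 against 13.0% with other segments in the CD4 dLNs, and TRBJ1-2 is lower with TRBV14 in each group.

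More TRBV14 CDR3s were shared between mice in CD8+ cells, where more clones were sampled. Of 1297 different TRBV14 CDR3 residue sequences in the CD4 tumors, 23 were in 2 mice, 2 in 3 mice and 0 in all 4. Of 10922 in the CD8 tumors, 637 were in 2, 108 in 3 and 29 in all 4, or 635, 97 and 27 after removal of clones far rarer than in another mouse. In the dLNs, 60, 6 and 0 of 1880 CD4 sequences and 855, 154 and 60 of 11632 CD8 sequences were in 2, 3 and 4 mice. The share in at least 2 mice was 1.93%, 3.51%, 7.09% and 9.19% in CD4 tumor, CD4 dLN, CD8 tumor and CD8 dLN, against 5.38%, 6.93%, 9.35% and 10.2% for the other V segments pooled. Each segment was counted on its own there, and the share depends on how many clones of a segment were sampled, so the difference was not tested. Of the 29 sequences found in all 4 mice in the CD8 tumors, 26 were encoded by more than 1 nucleotide sequence. A phenylalanine at residue 5 was present in 16 of the 29. By mean share the leading ones were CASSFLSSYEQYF (0.0132% of reads), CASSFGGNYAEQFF (0.00637%) and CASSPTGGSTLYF (0.00322%). All 29 had lower mean shares than the clones of at least 0.5% described above. Clones of the CD4 and CD8 tumors of a mouse overlapped in 5, 11, 29 and 6 TRBV14 clones in mice 5 to 8, which was 2.03% to 6.11% of the CD4 and 0.215% to 0.528% of the CD8 clones. The range for clones of other V segments was 2.13% to 5.53% of the CD4 and 0.645% to 1.17% of the CD8 clones.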

How the data were processed

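TCRβ sequencing of 48 libraries was analysed from the deposited clone tables, which give per clone a read count, its fraction of the library, the CDR3, and the V, D and J segments with their positions in the CDR3. Per the labels and the study's methods, reads made by template switching were trimmed (cutadapt 3.2), filtered, and assigned to IMGT segments with MiXCR by the authors. Productive clones were kept, and the study's methods mention no molecular identifiers. Clones were not down-sampled in the deposited counts. The deposited fraction equals the count over the library total, and no genome build was involved.

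Here each library was drawn once without replacement (seed 14) to 6 reads per sorted cell, with cell numbers from the study. Fragments were added, sides averaged, and exact permutation tests were run over mice (Python 3.11.15, SciPy 1.17.1). V segments with a mean of at least 20 clones were tested. edgeR 4.0.16 and DESeq2 1.42.0 were run on numbers of distinct clones as alternatives, and the tests were checked on simulated data. The same animals gave tumor and dLN; over 21 V segments, the deviations of a mouse in CD8 tumor and CD8 dLN correlated with r from 0.0561 to 0.651, those in CD4 dLN and CD8 dLN from −0.0160 to 0.536, and those in CD4 tumor and CD4 dLN from −0.285 to 0.322. Intervals are 95% Wilson intervals on the read share times the number of sorted cells.

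TRBV14, the thresholds and the lists were chosen with earlier results of these data known. Named were the clones of at least 0.5% of a tumor's reads and the 2 below them, 3 J segments by share and 3 by difference in the CD4 dLNs, 3 V segments by correlation, and 3 CDR3s found in all mice. Alternatives were the deposited reads, read minimums of 2 and 6, clones by residue sequence, removal of a clone from mice where its share was 100 or more times below that of another mouse, 100000 reads per library, separate fragments, leaving out each mouse, and the mouse as a block. Replicates are separate mice.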

Additional observations from a re-analysis of the deposited data

Results flagged for a closer look

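In the CD4 tumors, the ratio of TRBV14 read share to clone share of mouse 7 (4.81) stood apart from that of the other mice (0.760 to 1.37). Without the most frequent TRBV14 clone of each mouse, the TRBV14 share of reads of mouse 5 (2.20%) stood apart from that of the other mice (1.11% to 1.27%). About 1 in 20 independent groups of 4 is marked in this way by chance. The 32 groups examined were overlapping measures of the same 4 mice, so this rate does not hold for them. The segment was selected for its large CD4 tumor clones, which both marked values depend on, so the marks are a description only.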

How the results depend on the processing

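Differences in clone share or length kept their direction and their side of the threshold in 69 of 86 recomputations, and those of single J segments in 117 of 120. Without 1 mouse, where no test can pass, the direction was kept in 40 of 40 and 74 of 80. The cause of the changes below was not tested. With the mouse as a replicate block, p was 0.13 in each test, the smallest that 4 mice allow, for the called differences in clone share (−1.02 and −2.99 percentage points), in length between groups (0.0729 and −0.140 residues) and in length from other segments (−0.265, −0.253, −0.314 and −0.260 residues). The share of distinct clones was 2.13% in the CD4 dLNs, 4.29% in the CD8 tumors and 5.43% in the CD8 dLNs at a read minimum of 6. At 100000 reads per library it was 4.23% in the CD8 tumors and 5.15% in the CD8 dLNs, and by residue sequence 3.98% in the CD8 tumors. Weighted by reads, the tumor-to-dLN length difference reversed to −0.606 (CD4, adjusted p = 0.691, exact permutation test) and −0.540 (CD8, adjusted p = 0.673, exact permutation test), and that of CD8 tumors from other segments was −0.790 (adjusted p = 0.0857, exact permutation test). With medians, the length differences were 0 for CD8 tumor against dLN, −0.13 for CD4 against CD8 dLN, and 0, −0.13, 0 and 0 from other segments. The J segments with an unadjusted p below 0.05 between tumor and dLN were 2, against 1 with deposited reads, a read minimum of 2 or residue sequences, and 4 by reads. These counts could not be had under the block or without a mouse, where the smallest p is above 0.05. At 0.1% and 1% of reads the CD4 tumors held 10 and 1 large clones and the CD8 tumors 13 and 3. By reads, the TRBJ2-7 difference from other clones reversed in CD4 tumors (−4.64 percentage points), CD4 dLNs (−0.736) and CD8 dLNs (−0.714). Leaving out each mouse moved the difference through 0 for TRBJ2-1 in CD4 tumors (−1.68 to 0.111) and CD4 dLNs (−0.409 to 0.477), TRBJ2-3 in CD4 tumors (−1.28 to 0.220) and CD8 dLNs (−0.524 to 0.0342), and TRBJ2-7 in CD4 tumors (−0.187 to 1.68) and CD4 dLNs (−0.268 to 1.82). Without 1 mouse, the clone share differences ranged from −1.06 to −0.940 and from −3.06 to −2.93, and the CD4 tumor share of reads from 1.79% (without mouse 7) to 3.90%. With the most frequent clone of each mouse left out it was 1.44%. The length differences that were not called ranged from 0.0353 to 0.142 residues (CD4 tumor against dLN) and from −0.166 to −0.0689 (CD4 against CD8 tumor) without 1 mouse.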

Other observations

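The most frequent TRBV14 clone of the right CD8 dLN of mouse 8 and that of the left CD8 dLN of mouse 5 had the same V, J and CDR3 nucleotide sequence (TRBJ2-4, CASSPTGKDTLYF), with 13 bases assigned to neither V nor J. It was singled out after its values were seen. It held 1.01% of the reads of the mouse 8 dLN (5041 drawn reads) and 0.324% of the mouse 5 dLN (1328 drawn reads), and was the second most frequent of all clones in each. The other dLN of mouse 5 had 1 drawn read and the left dLN of mouse 8 had none. In the deposited counts it was present in 9 of 48 libraries, none of them CD4+. These were 4 CD8 dLN libraries and 5 CD8 tumor libraries, and the 5 were all of fragment 2, whereas 0 of 8 fragment 1 libraries of the CD8 tumors held it. The third highest was fragment 2 of the left CD8 tumor of mouse 7, with 0.0611% of drawn reads. Fragment 2 of the left CD8 tumor of mouse 8 had 35 drawn reads, while the right CD8 tumor of mouse 8, on the side of its node, had none. Among CD8 dLN clones of at least 0.02% of reads, 3 of 35 TRBV14 clones (8.57%) and 27 of 480 other clones (5.63%) reached that share in at least 2 mice. A passage of reads between libraries, which would change what the shares of this clone mean, was not tested.

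In mouse 6 the same TRBJ2-5 clone led TRBV14 in both CD4 dLNs, at 0.102% on the left and 0.131% on the right. Its tumor shares were 0.131% on the left and 0.0962% on the right, so that node and tumor differed little. In mouse 7 the leading TRBV14 clone of the right CD4 dLN was a TRBJ2-4 clone at 0.268%, whose share in the right tumor was 0.0762%. It was thus lower in the tumor, whereas the TRBJ2-5 clone of the same node was higher there. The leading TRBV14 clones of the CD4 dLNs of mice 5 and 8 were lower in the tumor of their side. With the left node first, the shares were 0.142% against 0.0977% and 0.161% against 0.0343% in mouse 5. In mouse 8 they were 0.140% against 0.0327% and 0.0718% against 0%. These clones were picked as the highest of their node.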
